A study of Homo sapiens with 6 samples.

Results

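Genes of the plasminogen activator system and of the tissue factor pathway were followed in Panc-1 cells with and without TGFβ. The set was defined by name and held 9 genes: the activators PLAU and PLAT, the receptor PLAUR, the protease inhibitor SERPINE2, the clotting initiator F3, its inhibitors TFPI and TFPI2, the thrombin receptor THBD and the protease-activated receptor F2RL1. A probe set (the group of short oligonucleotides that reads 1 transcript on the array) was used where the array annotation assigned it to 1 of these genes and to no other. By this rule 8 of the 9 genes had 19 of the 54613 probe sets, and F2RL1, with no such probe set in the annotation used, was not analysed here.

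Panc-1 is an established cell line from a human pancreatic ductal adenocarcinoma, which the study counted among its mesenchymal-like lines before any treatment. The TGFβ group was 3 arrays of cells given porcine TGFβ1 for 48 h, at 5 ng/mL by the sample labels (the study's methods give the same figure as nM), and the untreated group was 3 arrays of cells given none. The treated cells had been serum-starved for 24 h beforehand, and the labels give the same treatment text for the untreated arrays. The sources describe 3 repeats of the experiment without saying how the cultures were set up, and the p-values measure the spread between these arrays. Both groups are 1 cell line, which limits them as a model of the tumour.

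Plasminogen, a circulating zymogen, is cut to the broad protease plasmin by urokinase (PLAU) or by tissue-type plasminogen activator (PLAT). Urokinase is held at the cell surface by its lipid-anchored receptor PLAUR, and serpins such as SERPINE2 (protease nexin-1) trap thrombin and both activators in stable complexes. On the clotting side, tissue factor (F3) binds factor VIIa and starts thrombin formation, TFPI blocks factor Xa and the tissue factor complex, and thrombomodulin (THBD) turns thrombin towards activation of protein C. The Kunitz inhibitor TFPI2, despite its name, acts mainly on plasmin and trypsin in the matrix. Carcinoma cells can express both systems.

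All values are log2 signals from the deposited table, in which 1 unit is a doubling. A probe set was tested where its mean log2 signal reached 6.64, a signal of 100, in at least 1 group, and 9 of the 19 probe sets did so. These 9 belonged to SERPINE2, PLAU, PLAUR and TFPI, whereas no probe set of PLAT, F3, THBD or TFPI2 reached the limit. Both PLAUR probe sets that passed did so through the TGFβ arrays alone. Arrays of 1 group correlated at 0.995 to 0.998 over the probe sets, against 0.954 to 0.959 between the groups. Among 6 TGFβ response genes, 5 were called higher and CDH1 (E-cadherin) lower. This is a description, because the genes were chosen with earlier results of these data known. CDH1 passed through the untreated arrays alone, with 7.58 against 5.56 in TGFβ cells, and is also 1 of the epithelial markers that follow. Of the 7 epithelial markers 6 were tested and 4 called lower, beside 31.0% of all genes tested. KRT8 fell by 2.18 on the log2 scale, while KRT7 at 0.24 and SOX9 at 0.14 were not called. The 29 leukocyte, fibroblast, acinar, islet and hepatocyte markers on the array lay below the limit in both groups, with means up to 6.18 in TGFβ cells and up to 6.17 in untreated cells. Of 9 endothelial markers, 8 including PECAM1, CDH5 and VWF lay below it, while ESAM had 7.08 in TGFβ cells and 5.43 in untreated cells. The summed signal of that list was 278 to 301 in TGFβ cells and 197 to 202 in untreated cells. The part of these shifts in the results that follow was not tested.

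**Figure D1:**
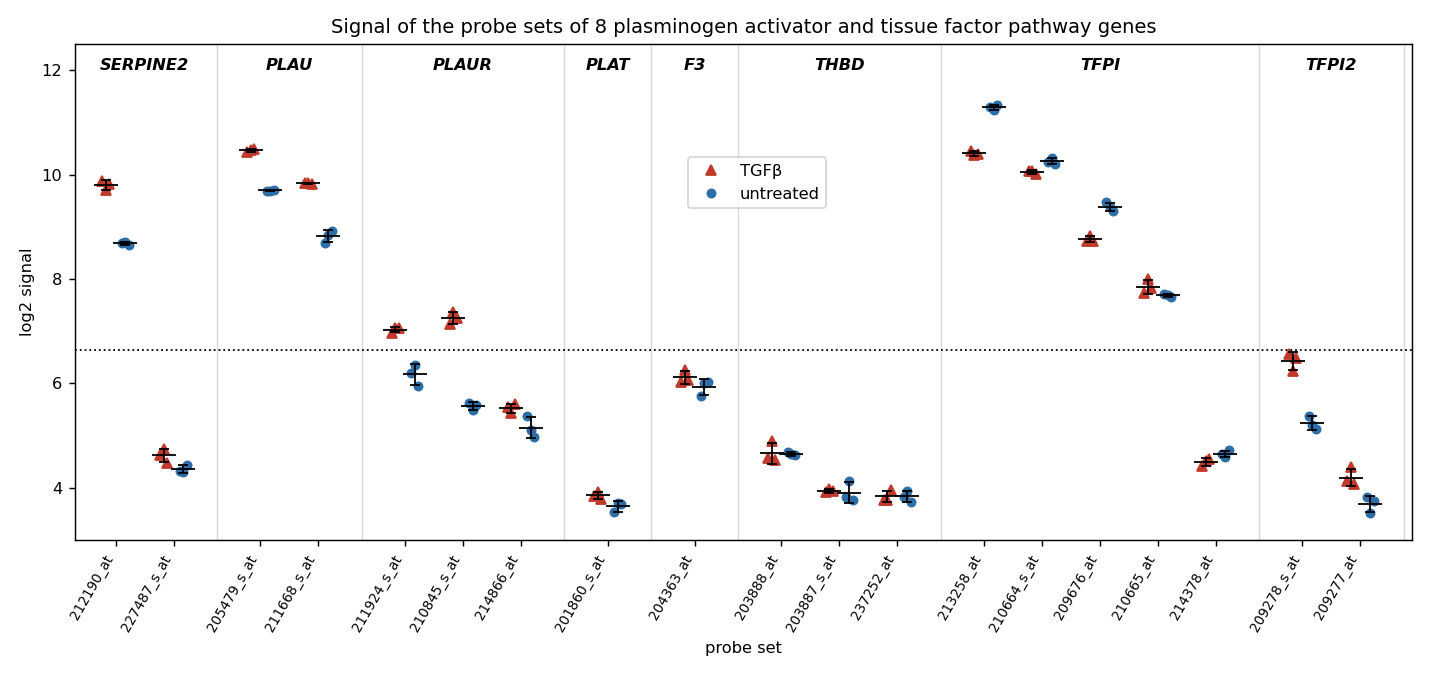
log2 signal (vertical axis) of each of the 19 probe sets (horizontal axis, grouped by gene) on every array, TGFβ as red triangles and untreated as blue circles, with black bars for the mean and SD of 3 arrays and a dotted line at the limit of 6.64. The groups stand apart for SERPINE2, PLAU and PLAUR with TGFβ higher, the brightest TFPI probe sets stand apart with TGFβ lower, and PLAT, F3, THBD and TFPI2 lie under the line.

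PLAU rose 1.85-fold with TGFβ and the inhibitor SERPINE2 rose 2.17-fold, while TFPI fell 1.30-fold. PLAUR was called higher at 2.41-fold over the probe sets that passed through the TGFβ arrays, and at 1.96-fold with all 3 of its probe sets and no limit on signal. Over the whole array 58.7% of the 10115 genes tested were called at an adjusted p under 0.05, 27.7% higher and 31.0% lower, so that a call by itself was common. All 4 genes that passed the limit were called, 3 higher and 1 lower, which is given as a description because PLAUR passed through 1 group. Ordered by log2 fold change, SERPINE2 was at place 196 from the top of the genes tested and PLAU at 292, and TFPI was at place 1478 from the bottom. PLAUR is given no place, since its change was taken against untreated signals under the limit. The median of all genes tested was -0.013. Tests were limma's moderated test with the replicate number as a block, two-sided, with Benjamini-Hochberg adjustment over all genes or probe sets tested.

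**Figure D2:**
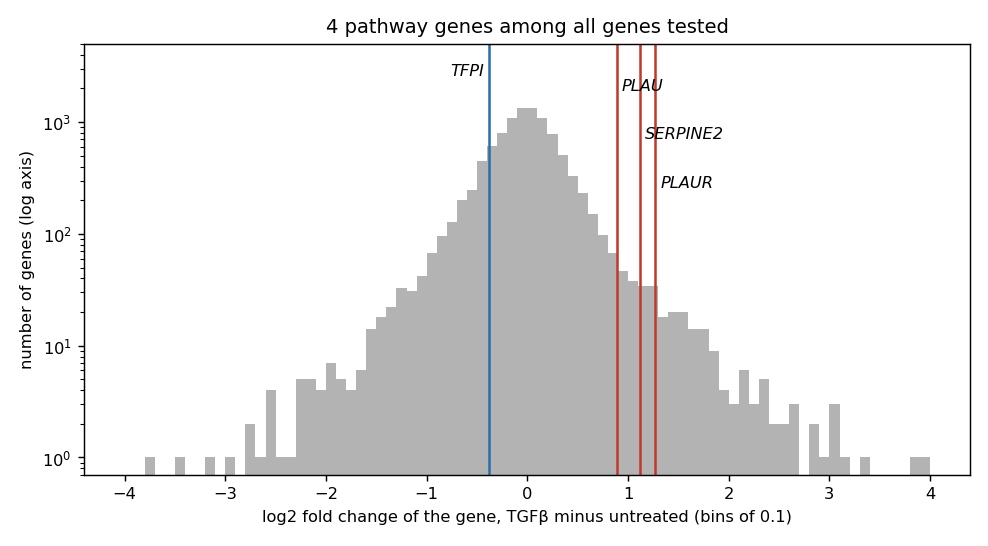
Histogram of the log2 fold change (horizontal axis, TGFβ minus untreated) over the 10115 genes tested (vertical axis, number of genes on a log scale), with lines at the 4 genes of the plasminogen activator and tissue factor systems. PLAU at 0.89, SERPINE2 at 1.12 and PLAUR at 1.27 lie in the right flank, and TFPI at -0.38 lies near the centre.

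PLAU encodes urokinase, the secreted serine protease that activates plasminogen at the cell surface. As a gene it averaged 10.1 ± 0.0090 in TGFβ cells and 9.26 ± 0.059 in untreated cells (log2 signal, SD, n = 3 each), a log2 fold change of 0.89 (SE 0.050, limma adjusted p = 5.00e-05). Probe set 205479_s_at read 10.43, 10.47 and 10.48 in TGFβ cells, against 9.69, 9.69 and 9.70 in untreated cells. Probe set 211668_s_at read 9.85, 9.84 and 9.83 in TGFβ cells, against 8.70, 8.85 and 8.92 in untreated cells. On both probe sets every TGFβ array lay above every untreated array, and the untreated arrays of the second were spread more widely than its TGFβ arrays. The changes were 0.77 and 1.01. Their difference, 0.25 (SE 0.081, limma adjusted p = 0.0587), did not pass, although 30.4% of the 6952 such differences between probe sets of 1 gene did. That difference did pass with quantile normalisation (adjusted p = 0.0404) and without the block (0.0344).

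The promoters of PLAU and PLAUR are shown because these genes encode a ligand and its receptor. Each covers the 250 bases before a start annotated in RefSeq and is written 5′ to 3′ on the gene's strand. Capitals mark matches on either strand to the SMAD box CAGAC, the AP-1 motif TGANTCA, the GC box GGGCGG and the TATA box TATAAA, positions being counted back from the start. For PLAU the second of 2 annotated windows is given.
PLAU promoter (GRCh38.p14, chr10:73910882-73911131, plus strand): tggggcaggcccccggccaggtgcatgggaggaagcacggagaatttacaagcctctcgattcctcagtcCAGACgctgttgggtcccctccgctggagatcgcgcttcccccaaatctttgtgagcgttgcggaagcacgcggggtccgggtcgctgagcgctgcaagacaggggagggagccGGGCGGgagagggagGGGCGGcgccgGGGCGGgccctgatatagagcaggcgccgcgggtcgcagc
PLAUR promoter (GRCh38.p14, chr19:43670170-43670419, minus strand): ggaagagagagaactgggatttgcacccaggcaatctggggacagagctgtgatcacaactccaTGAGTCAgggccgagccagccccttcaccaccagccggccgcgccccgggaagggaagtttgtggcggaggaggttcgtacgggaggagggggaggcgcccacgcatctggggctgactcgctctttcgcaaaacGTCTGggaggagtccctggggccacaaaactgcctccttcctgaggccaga
The PLAU window held a SMAD box at -180 and 3 GC boxes, and the first PLAU window held none of the 4 motifs. The PLAUR window held an AP-1 match at -186 and a SMAD box at -51, with no GC box. Among 35116 RefSeq promoter windows of this length, 38% held a SMAD box, 6.57% an AP-1 match, 42.6% a GC box and 10.7% a TATA box. A match is a stretch of letters and was not tested as a binding site.

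PLAUR encodes the urokinase receptor, which also binds vitronectin. It averaged 7.14 ± 0.086 in TGFβ cells and 5.87 ± 0.085 in untreated cells (log2 signal, SD, n = 3 each), a log2 fold change of 1.27 (SE 0.063). This change of the gene is given as a description, because both probe sets that it averages passed through the TGFβ arrays alone. Probe set 210845_s_at read 7.13, 7.37 and 7.26 in TGFβ cells, against 5.63, 5.49 and 5.59 in untreated cells. Probe set 211924_s_at read 6.97, 7.06 and 7.05 in TGFβ cells, against 6.20, 6.36 and 5.95 in untreated cells. The groups did not overlap on either, and the untreated arrays lay under the limit. The third probe set, 214866_at, stayed under it in both groups with 5.54, 5.43 and 5.60 in TGFβ cells, against 5.37, 5.11 and 4.97 in untreated cells. Its groups also stood apart, though by a small margin.

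The fitted changes of the PLAUR probe sets are given as a description, since both entered through the TGFβ arrays and were set against untreated signals under the limit. The log2 fold change was 1.68 (SE 0.083) for 210845_s_at and 0.86 (SE 0.088) for 211924_s_at, a difference of 0.83 (SE 0.12), or 0.65 to 0.96 in the alternatives run. With all 3 probe sets averaged and no limit on signal, the change of the gene was 0.97 (limma adjusted p = 0.000173, 26.8% of 19777 genes called). With a limit of 200, or a limit on the mean over all 6 arrays, PLAUR was not tested at all.

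**Figure D3:**
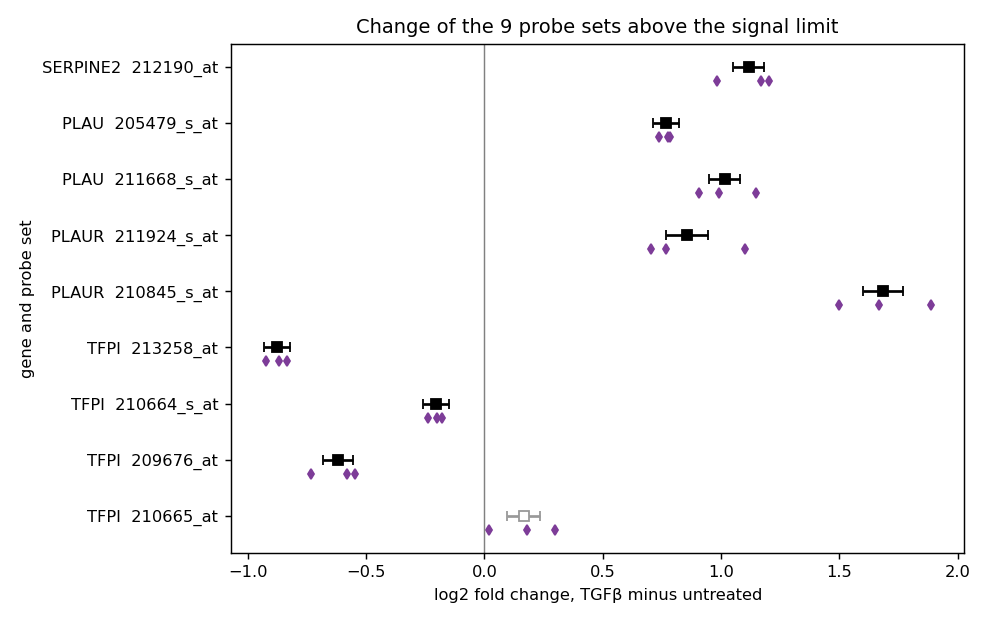
log2 fold change (horizontal axis, TGFβ minus untreated) of the 9 probe sets above the signal limit (vertical axis), with diamonds for the differences of same-numbered arrays and squares with bars for the fitted value and its standard error, open grey where not called. The PLAUR probe sets lie at 1.68 and 0.86, and the TFPI probe sets run between -0.88 and 0.16.

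SERPINE2, also called protease nexin-1 and bound to heparan sulfate at the cell surface, inhibits thrombin, urokinase and plasmin. Probe set 212190_at read 9.89, 9.70 and 9.81 in TGFβ cells, against 8.69, 8.71 and 8.65 in untreated cells. The lowest TGFβ array lay nearly 1 unit above the highest untreated array. The means were 9.80 ± 0.096 in TGFβ cells and 8.68 ± 0.034 in untreated cells (SD, n = 3 each), a log2 fold change of 1.12 (SE 0.061, limma adjusted p = 4.59e-05). Its other probe set, 227487_s_at, was below the limit at 4.62, 4.75 and 4.48 in TGFβ cells, against 4.33, 4.31 and 4.44 in untreated cells. There the groups stood barely apart, and averaging this dim probe set in lowered the change of the gene to 0.69.

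PLAT, the activator that works on fibrin clots, had low signal. Its probe set 201860_s_at read 3.85, 3.93 and 3.79 in TGFβ cells, against 3.53, 3.71 and 3.69 in untreated cells. The TGFβ arrays were the higher ones, by 0.21 on average. Without the limit the difference of 0.21 was called in the fit over genes (limma adjusted p = 0.0449) and not in the fit over probe sets (0.0980), and it was 0.097 once a constant of 16 was added to the linear signal.

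Tissue factor, F3, is the membrane receptor that starts clotting. Its probe set 204363_at read 6.03, 6.25 and 6.06 in TGFβ cells, against 5.75, 6.01 and 6.03 in untreated cells. The groups overlapped, and all 6 arrays lay under the limit. Without the limit the difference was 0.18 and did not pass (SE 0.068, limma adjusted p = 0.0934).

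TFPI, the inhibitor of the tissue factor complex, was the gene of the set that fell. As a gene it averaged 9.27 ± 0.041 in TGFβ cells and 9.65 ± 0.027 in untreated cells (log2 signal, SD, n = 3 each), a log2 fold change of -0.38 (SE 0.050, limma adjusted p = 0.00111). This mean covered 4 probe sets that did not move alike. Probe set 213258_at read 10.46, 10.37 and 10.40 in TGFβ cells, against 11.29, 11.24 and 11.32 in untreated cells. Probe set 209676_at read 8.73, 8.82 and 8.73 in TGFβ cells, against 9.47, 9.37 and 9.31 in untreated cells. On both, all TGFβ arrays lay well below all untreated arrays, with changes of -0.88 (SE 0.055, limma adjusted p = 9.73e-05) and -0.62 (SE 0.063, limma adjusted p = 0.000526).

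The other TFPI probe sets moved less. Probe set 210664_s_at read 10.06, 10.08 and 10.01 in TGFβ cells, against 10.24, 10.31 and 10.21 in untreated cells. Probe set 210665_at read 7.73, 7.99 and 7.83 in TGFβ cells, against 7.71, 7.69 and 7.66 in untreated cells. Here the TGFβ arrays were lower on the first and slightly higher on the second, although the annotation ties both to the same transcript record. The change of 210664_s_at was -0.20 (SE 0.054, limma adjusted p = 0.0197), and that of 210665_at was 0.16 (SE 0.070, limma adjusted p = 0.0913). Leaving out replicate 2 or replicate 3 ended the call of 210664_s_at (limma adjusted p = 0.135 and 0.0957), as did median centring (0.0564) and testing without the limit (0.0857), and leaving out replicate 1 made 210665_at pass (0.0112). The remaining probe set, 214378_at, was below the limit, with 4.41, 4.52 and 4.55 in TGFβ cells and 4.64, 4.60 and 4.72 in untreated cells.

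Set against 213258_at on the same arrays, the change of 210665_at was higher by 1.04 (SE 0.085, limma adjusted p = 0.000564) and that of 210664_s_at by 0.67 (SE 0.069, limma adjusted p = 0.0010). The change of 209676_at was higher by 0.26 and missed the threshold (SE 0.079, limma adjusted p = 0.0504), which it passed without the block (0.0405) and with quantile normalisation (0.0331). The size of the fall in TFPI therefore depended on the probe set, and with 213258_at alone standing for the gene it was -0.88. The call for the gene as a whole was kept in the 16 alternatives run.

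TFPI2, an inhibitor of plasmin laid down in the extracellular matrix, was under the limit in both groups but differed between them. Probe set 209278_s_at read 6.57, 6.24 and 6.48 in TGFβ cells, against 5.38, 5.21 and 5.13 in untreated cells. Probe set 209277_at read 4.13, 4.39 and 4.07 in TGFβ cells, against 3.82, 3.53 and 3.75 in untreated cells. On both probe sets every TGFβ array lay above every untreated array, and the TGFβ arrays of the first came close to the limit. Without the limit the gene had a log2 fold change of 0.84 (SE 0.061, limma adjusted p = 0.000154), where 12.7% of all genes were called higher. With 16 added to the linear signal the difference was 0.59.

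The promoters of the inhibitors TFPI and TFPI2 are shown as a pair because the first fell and the second was higher without the limit. Whether motifs go with the direction of change was not tested, and a pair picked by direction cannot show it. Capitals mark the same motifs.
TFPI promoter (GRCh38.p14, chr2:187554436-187554685, minus strand): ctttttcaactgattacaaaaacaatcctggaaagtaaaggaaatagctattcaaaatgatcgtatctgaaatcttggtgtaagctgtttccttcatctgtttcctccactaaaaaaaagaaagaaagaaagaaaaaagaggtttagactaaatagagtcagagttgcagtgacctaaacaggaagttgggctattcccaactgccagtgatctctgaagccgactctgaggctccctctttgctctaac
TFPI2 promoter (GRCh38.p14, chr7:93890754-93891003, minus strand): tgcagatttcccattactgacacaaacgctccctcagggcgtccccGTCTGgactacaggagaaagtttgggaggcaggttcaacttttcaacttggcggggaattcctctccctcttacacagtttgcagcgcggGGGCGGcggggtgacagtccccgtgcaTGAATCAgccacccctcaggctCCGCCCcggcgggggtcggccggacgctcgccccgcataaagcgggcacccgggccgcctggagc
The TFPI window held none of the 4 motifs. The TFPI2 window held an AP-1 match at -87, a SMAD box at -204 and 2 GC boxes. Promoter windows were found for 7 of the 9 genes, 9 windows in all. AP-1 matches stood in 3 of them, those of PLAUR, TFPI2 and F3, and the F3 window alone held a TATA box, at -28. SMAD boxes stood in 4 windows, those of PLAU, PLAUR, TFPI2 and F2RL1, and GC boxes in 6. The F3 window held 2 AP-1 matches, and the SERPINE2 windows held GC boxes alone.

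THBD, thrombomodulin, is a thrombin receptor best known from endothelium. Its probe set 203888_at read 4.57, 4.89 and 4.52 in TGFβ cells, against 4.69, 4.64 and 4.62 in untreated cells. The other probe sets, 203887_s_at and 237252_at, had means of 3.94 and 3.84 in TGFβ cells, against 3.91 and 3.84 in untreated cells. The groups overlapped on all 3 probe sets, and none came near the limit. Without the limit the difference of the gene was 0.016 (SE 0.058, limma adjusted p = 0.883). Fewer cells with a transcript and less of it per cell cannot be told apart in these bulk RNA samples.

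Over all 19 probe sets, the groups did not overlap on 15, with TGFβ above on 11 and below on 4, beside 36.0% of all 54613 probe sets, 18.0% in each direction. In the fit over probe sets, 5 of the 9 tested were called higher, 3 lower and 1 not. Over the array 55.1% of 19101 probe sets were called, 26.6% higher and 28.5% lower. The count of 5 is a description, because it includes both PLAUR probe sets that passed through the TGFβ arrays alone. With the limit set on the mean over all arrays, 3 probe sets of the set were called higher and 3 lower. Of the 10 below the limit, 3 were called higher without it, both probe sets of TFPI2 and the third of PLAUR, where 9.22% of all probe sets were.

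**Figure D4:**
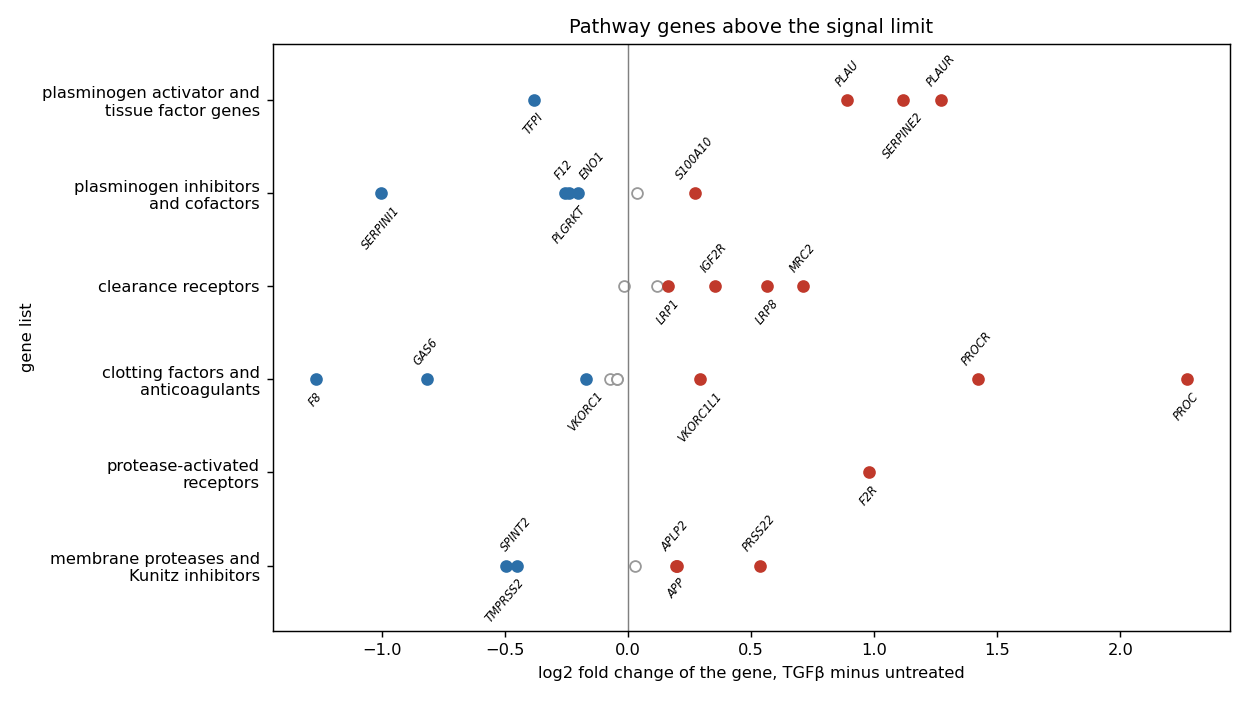
log2 fold change (horizontal axis, TGFβ minus untreated) of the 4 tested genes of the set and of the 28 tested genes of 5 related lists (vertical axis), with red points for genes called higher, blue for lower and open grey circles for those not called. The clotting list runs between F8 at -1.27 and PROC at 2.27, and the tested genes of the clearance receptor list lie near or above 0.

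The genes around this set moved in both directions. In 5 lists of related genes, 28 of 66 passed the limit, of which 12 were called higher, 9 lower and 7 neither, and 32 more were on the array below the limit. These counts, and those of the single lists, stand beside 27.7% of all genes tested called higher and 31.0% called lower, and nothing particular to the lists is read from them. They are a description, because they include PROC and PRSS22 with untreated means, and TMPRSS2 with a TGFβ mean, below the limit. Plasminogen itself (PLG) was below the limit, with means of 4.60 in TGFβ cells and 4.57 in untreated cells. Of the 6 tested genes for plasminogen inhibitors and cofactors, 4 fell, 1 rose and 1 was not called, with a median of -0.22. SERPINI1, neuroserpin, an inhibitor of tissue-type activator, fell by 1.00 (SE 0.053). PLGRKT, a plasminogen receptor, had -0.24 and lost the call without replicate 2 (limma adjusted p = 0.0587) or replicate 3 (0.0509). S100A10, the annexin partner that binds plasminogen, rose by 0.27 (SE 0.055), a call lost in the paired test that the study's methods name (the methods' test) after Benjamini-Hochberg adjustment (adjusted p = 0.0829). F12, a protease of contact activation, fell by 0.26, or had -0.060 with no limit on signal (limma adjusted p = 0.563), and lost the call without replicate 2 (0.0631).

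Complexes of urokinase or TFPI with their partners are taken up by receptors of the LDL receptor family and by related receptors. The list of these receptors also holds LRPAP1, a receptor-associated protein that is not itself a receptor. Of its 6 genes tested, 4 were called higher and 2, LRPAP1 among them, were not called, with a median of 0.26. The collagen receptor MRC2, which associates with PLAUR, rose by 0.71 (SE 0.10), a call that the methods' test did not make after Benjamini-Hochberg adjustment (adjusted p = 0.101). With its brightest probe set alone the rise was 0.98 (limma adjusted p = 9.92e-05). The study, which describes no such adjustment, reported MRC2 higher in these cells, and more of its protein by Western blot after a longer TGFβ treatment. The lipoprotein receptor LRP8 rose by 0.57 (SE 0.053). LRP1, the main clearance receptor of these complexes, had 7.14, 7.01 and 7.05 in TGFβ cells, against 6.95, 6.87 and 6.89 in untreated cells. Its TGFβ arrays were higher by a small margin, a log2 fold change of 0.16 (SE 0.048, limma adjusted p = 0.0276), which was 0.084 and not called without the limit (0.312) and lost without replicate 2 (0.115) or 3 (0.135). IGF2R, which can bind PLAUR and plasminogen, had overlapping groups and a change of 0.35 (limma adjusted p = 0.0335), not called without the block (0.0615), the limit (0.0745), replicate 1 (0.0546) or replicate 2 (0.0935).

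Of the 23 clotting genes, 9 were tested, with 3 higher, 3 lower and 3 not called and a median of -0.046. PROC, protein C, the zymogen that thrombomodulin helps to activate, read 7.42, 7.68 and 7.56 in TGFβ cells, against 5.60, 5.30 and 4.94 in untreated cells. It rose by 2.27 (SE 0.14), with the TGFβ arrays alone above the limit. PROCR, the endothelial protein C receptor, read 9.95, 9.81 and 9.81 in TGFβ cells, against 8.37, 8.44 and 8.50 in untreated cells, and rose by 1.42 (SE 0.065). Both stood clear of their untreated arrays. THBD, the third component of that route, lay under the limit in both groups, and PROC passed through 1 group, so no contrast between them is drawn. F8, the cofactor of factor IX, fell by 1.27 (SE 0.054) and GAS6, a ligand related to protein S, by 0.82 (SE 0.060). With its brightest probe set alone the fall of GAS6 was 0.63, and it was still called (limma adjusted p = 0.000223). The vitamin K reductase VKORC1 had -0.17, lost without replicate 2 (limma adjusted p = 0.0937) or 3 (0.126), and its relative VKORC1L1 had 0.29, or 0.076 with its brightest probe set alone (0.395). Factor VII (F7), the partner of tissue factor, had 6.67, 6.53 and 6.64 in TGFβ cells, against 6.74, 6.57 and 6.67 in untreated cells, with overlapping groups and a change of -0.044 (SE 0.048, limma adjusted p = 0.465). Factor X (F10) was below the limit, with means of 4.68 in TGFβ cells and 4.64 in untreated cells.

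Among the protease-activated receptors other than F2RL1, the thrombin receptor F2R passed the limit. It read 8.21, 8.06 and 8.14 in TGFβ cells, against 7.10, 7.11 and 7.26 in untreated cells. The groups lay well apart, a log2 fold change of 0.98 (SE 0.062, limma adjusted p = 7.44e-05). The change depended on the probe set, at 1.45 with the brightest alone and 0.51 without those ending in _x_at or _s_at, and was called in both cases. Of 6 membrane serine proteases and Kunitz inhibitors tested, 3 were called higher and 2 lower, with a median of 0.11. The protease TMPRSS2 fell by 0.50 (SE 0.049), with its TGFβ mean below the limit at 6.60, against 7.09 in untreated cells. It was also called with the limit on the mean over all arrays, and was not tested with a limit of 200. The Kunitz inhibitor SPINT2 fell by 0.45 (SE 0.053). The protease PRSS22 rose by 0.53 (SE 0.093), with untreated arrays below the limit, and was not called by the methods' test after Benjamini-Hochberg adjustment (adjusted p = 0.120). APLP2 had 0.19, and lost the call without replicate 2 (limma adjusted p = 0.0613) or 3 (0.0805) and had 0.084 with its brightest probe set (0.218) and 0.49 without those ending in _x_at or _s_at (0.00482). APP, the amyloid precursor whose longer forms carry a Kunitz domain, had 0.20, lost without replicate 2 (limma adjusted p = 0.184) or 3 (0.0901), and -0.018 with its brightest probe set alone (0.815).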

How the data were processed

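The data were one-colour Affymetrix HG_U133_plus_2 arrays of total RNA. The authors' deposited values were log2 signals per probe set, with software and normalisation not given in the sources used here, and they were not normalised again. No detection calls or scan dates were used, and the 6 arrays limit the precision. After 62 control rows, 41091 probe sets named 1 gene, 1801 several and 11721 none, and 19735 of 19777 genes were found in the RefSeq gene table. Gene values were the mean of the log2 values of passing probe sets. limma 3.58.1 (R 4.3.3) was fitted with the replicate number as a block, as the study's methods pair the arrays. On simulated data the gene fit recovered 25 of 50 planted 1.25-fold changes, 47 of 50 at 1.5-fold and all 50 at 2-fold and at 4-fold. Of its 187 calls there, 15 were false. The related lists were described by counts. Named from each were up to 3 called genes with the largest rise and up to 3 with the largest fall, and genes that act directly on the set. The members and lists were chosen with earlier results of these data known. Promoter sequences were from RefSeq on GRCh38.p14. Alternatives covered the block, the limit, normalisation, an added constant, the variance model, probe set choice, gene value, replicates, test and threshold. Genes with no probe set naming only them were not analysed here.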

Additional observations from a re-analysis of the deposited data

How the results depend on the processing

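The calls and directions of SERPINE2, PLAU, PLAUR and TFPI were kept in all 60 of their alternative values. These 60 cover only settings in which the gene was tested. PLAUR was not tested with a limit of 200 or on the mean over all arrays, nor without probe sets ending in _x_at or _s_at. Apart from the setting without a limit, PLAUR entered through its TGFβ arrays, so those calls are not separate support for its rise. Of 249 alternative values of the set's genes and probe sets, 234 kept both call and direction. Of 322 alternative values of the related genes 273 did so, and 3 changed sign: APP had -0.018 without probe sets ending in _x_at or _s_at and -0.018 with the brightest probe set, and F7 had 0.046 without the limit. The cause was not tested.

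Without the limit, 5 genes and 8 probe sets of the set were called higher, against 3 and 5. Then 4555 probe sets differed from the brightest of their gene, against 2110 of the 6952 tested with the limit. More such differences were tested without it, so these 2 counts are not shares of the same total. With a limit of 200, or on the mean over all arrays, 3 probe sets of the set were higher, since those of PLAUR were no longer tested. Without probe sets ending in _x_at or _s_at, which leaves fewer probe sets, 1 gene and 1 probe set of the set were higher. All passing probe sets of PLAU and PLAUR end in _s_at, so neither gene was tested there. In the same setting 1794 genes were called higher against 2799, and 6008 probe sets were called against 10524 (2574 higher and 3434 lower, against 5078 and 5446). The methods' test with Benjamini-Hochberg adjustment, which borrows no spread across genes, called 2414 genes against 5934 (1180 higher and 1234 lower, against 2799 and 3135) and 3274 probe sets (1667 higher and 1607 lower), and 5 genes of the related lists higher against 12. By that test PLAUR probe set 211924_s_at (adjusted p = 0.0685) and TFPI probe set 209676_at (adjusted p = 0.0501) were not called, nor were PLGRKT, F12, S100A10, MRC2, IGF2R, VKORC1L1, PRSS22, APP and APLP2 of the related genes. Leaving out 1 replicate number at a time, 1124 to 2561 probe sets differed from the brightest of their gene, and 5 to 10 genes of the related lists were lower. The lowest of these were 1124 without replicate 3, beside 1141 without replicate 2, and 5 without replicate 2.

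The replicate numbers did not pair the arrays by the data: deviations of same-numbered arrays from their group means correlated at -0.24, 0.24 and 0.11, and not every array correlated best with its own number. Without the replicate block, 6265 genes and 11058 probe sets were called, and 2145 probe sets differed from the brightest of their gene. The set then had 3 genes and 5 probe sets higher and 1 gene and 3 probe sets lower, and the related lists had 11 genes higher and 9 lower. Depth is unknown for arrays, and levels under the limit were not tested in the main comparison.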
